A study of Mus musculus with 12 samples.

Results

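The choroid plexus hangs in the ventricles against the hippocampus, and pieces of it can come away with the hippocampus when a brain is dissected. The values of 10 choroid plexus marker genes were therefore followed in hippocampal RNA sequencing libraries from mice with and without *Dek*, as a gauge of attached choroid plexus. The markers were *Ttr*, *Kl*, *Folr1*, *Clic6*, *Kcne2*, *Otx2*, *Aqp1*, *Enpp2*, *Slc4a5* and *Prlr*. They were chosen by symbol, through the Ensembl identifiers of the table, and are 10 of its 26409 listed genes. All 10 were among the 18197 genes tested, which are those with a mean of at least 0.1 TPM (a unit that corrects reads for the length of the transcript and puts every library on the same total).

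The 12 libraries came from hippocampi microdissected from C57Bl/6 mice aged 6 to 12 months, with 3 WT and 3 *Dek* cKO animals of each sex. In *Dek* cKO animals exons 3 and 4 of *Dek* were deleted in the germline by Cre driven from the CMV promoter, and Cre was then bred out, so that every cell type of the animal, choroid plexus included, lacks the exons. All mice had been through behavioural tests before dissection. The comparison of *Dek* cKO with WT asks how loss of DEK, a chromatin-binding protein, changes hippocampal RNA. *Dek* itself ranged from 44.2 to 51.9 TPM in WT libraries and from 5.55 to 9.25 TPM in *Dek* cKO libraries. Listed genes summed to between 825750 and 845553 TPM in a library, and between 18104 and 18719 of them were above 0. The Y-linked gene *Eif2s3y* went against the labelled sex in 2 libraries, with 72.7 TPM in female *Dek* cKO replicate 3 and 0.111 TPM in male *Dek* cKO replicate 1. The 3 female WT libraries are also the only ones whose library names begin with C57, while the other 9 begin with CMV. Among WT libraries, sex and the origin of the name therefore cannot be told apart. The same holds for genotype and the origin of the name among female libraries.

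The choroid plexus is a sheet of epithelial cells over a core of vessels and stroma, and it secretes cerebrospinal fluid. Its epithelium carries sodium, chloride, bicarbonate and water into the ventricle, and it makes transthyretin, the carrier of thyroxine and, through retinol-binding protein, of retinol. Some of its proteins are nearly restricted to it in the brain, while others are also made by neurons or glia. Among the markers, *Enpp2* is also an oligodendrocyte gene, and *Kl* is also expressed by neurons. In bulk tissue, fewer cells of a type and less RNA per cell cannot be told apart.

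All 10 are protein-coding genes, and their positions are given in GRCm38 from GENCODE M21. The carrier and receptor genes were *Ttr* on chromosome 18 from 20665280 to 20674321 (plus strand), *Folr1* on chromosome 7 from 101858331 to 101870788 (minus strand), *Kl* on chromosome 5 from 150952607 to 150993817 (plus strand) and *Prlr* on chromosome 15 from 10177238 to 10349180 (plus strand). The secreted enzyme was *Enpp2* on chromosome 15 from 54838901 to 54952892 (minus strand), and the transcription factor *Otx2* on chromosome 14 from 48657677 to 48673819 (minus strand). The water channel was *Aqp1* on chromosome 6 from 55336432 to 55348555 (plus strand) and the bicarbonate cotransporter *Slc4a5* on chromosome 6 from 83219828 to 83304945 (plus strand). The positions of *Kcne2* and *Clic6* are given where their neighbours are described.

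Together the markers took up between 0.0171% and 0.633% of the listed TPM of a library. Their summed level ran from 141 TPM in female *Dek* cKO replicate 1 to 5262 TPM in male *Dek* cKO replicate 1. The range was 187 to 3545 TPM over the 6 WT libraries and 141 to 5262 TPM over the 6 *Dek* cKO libraries, so the WT range lay inside that of *Dek* cKO. The 2 highest sums, 4141 and 5262 TPM, were in *Dek* cKO libraries. *Ttr* made up 82.9% of the sum at most and 26.5% at least.

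*Ttr*, which encodes transthyretin, varied most in absolute level. Female WT replicates held 1590, 81.6 and 53.3 TPM, and female *Dek* cKO replicates held 37.5, 3308 and 1072 TPM. Male WT replicates held 1907, 559 and 2940 TPM, and male *Dek* cKO replicates held 4289, 48.8 and 1313 TPM. Each female group and the male *Dek* cKO group therefore had libraries with under 100 TPM beside libraries with over 1000 TPM, and the male WT group ran over a shorter range. *Ttr* ranked 12th among the listed genes in the library with most of it and 3962nd in the library with least, a ratio of 114.5 between those libraries. The standard deviation of its log2 values over the 12 libraries was larger than that of 99.7% of tested genes.

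*Folr1* encodes the folate receptor alpha, with which the choroid plexus moves folate into the cerebrospinal fluid. It was at 17.1, 2.10 and 3.04 TPM in female WT, 0.924, 38.3 and 11.7 TPM in female *Dek* cKO, 23.2, 6.25 and 32.2 TPM in male WT, and 44.3, 3.59 and 15.2 TPM in male *Dek* cKO. The libraries with high and low *Folr1* were the ones with high and low *Ttr*. *Kl* encodes klotho, the coreceptor of the hormone FGF23, and ranged from 5.93 to 43.6 TPM, a ratio of 7.35 that was the smallest among the markers. *Enpp2* encodes autotaxin, the secreted enzyme that makes lysophosphatidic acid, and ranged from 88.0 to 770 TPM, a ratio of 8.75. *Prlr*, the prolactin receptor, ranged from 1.89 to 19.0 TPM, a ratio of 10.1. These 3 genes had the smallest ratios of the 10.

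The transporters and channels of the epithelium had low levels and wide ranges. *Slc4a5*, a sodium bicarbonate cotransporter, ranged from 0.194 to 15.6 TPM, a ratio of 80.2. *Kcne2*, an accessory subunit of potassium channels, ranged from 0.374 to 22.2 TPM, a ratio of 59.5. *Aqp1*, the water channel of the apical membrane, ranged from 0.435 to 15.4 TPM, a ratio of 35.3. *Clic6*, a member of the chloride intracellular channel family, ranged from 0.933 to 30.1 TPM, a ratio of 32.2. For each of these genes male *Dek* cKO replicate 1 was the highest library and female *Dek* cKO replicate 2 the next. *Otx2*, a homeodomain transcription factor that the choroid plexus needs for its formation, ran from 0.0281 to 14.8 TPM, and its lowest value lies below the 0.1 TPM added before the log2 transform.

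**Figure D1:**
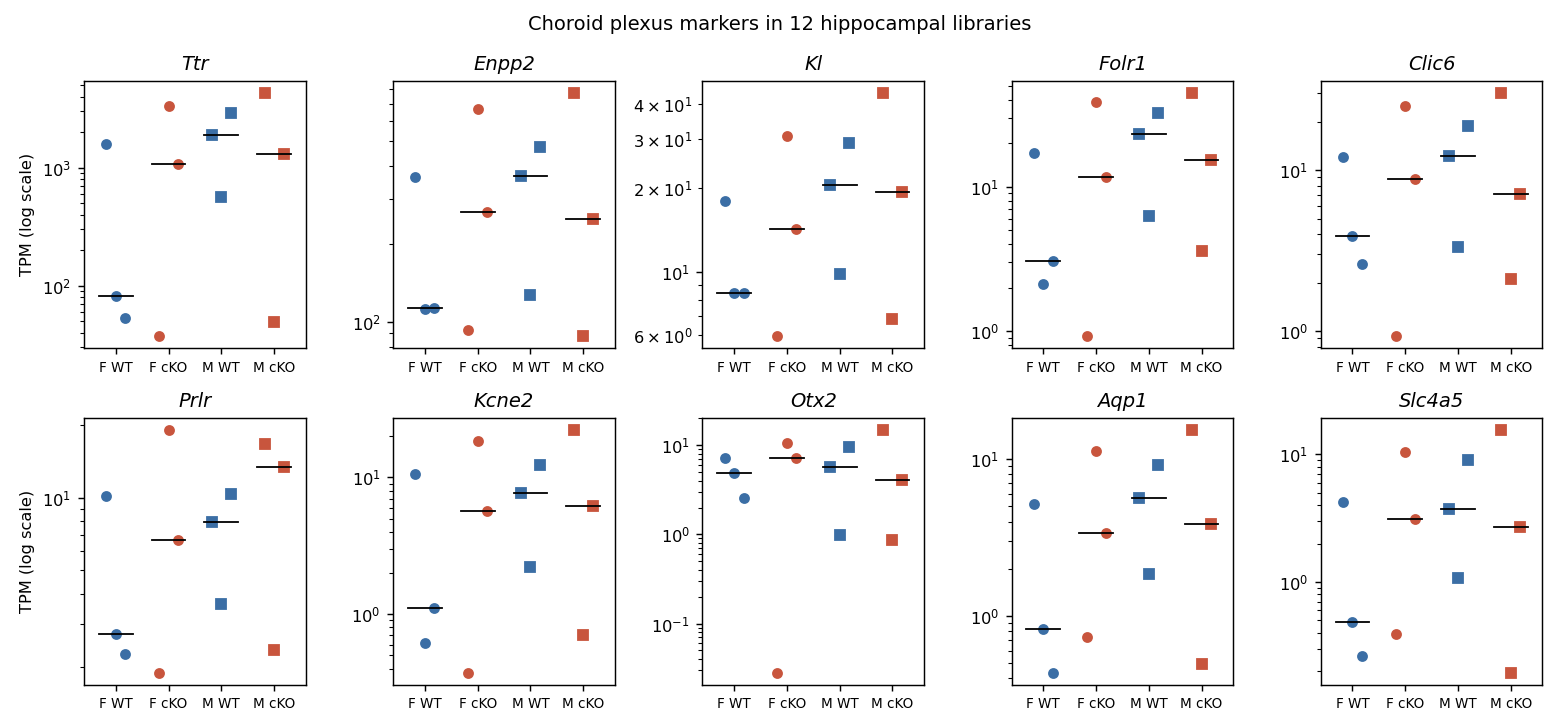
TPM of the 10 choroid plexus markers on log axes, with 1 point per library in each of the 4 groups (F, female; M, male; circles, female; squares, male; blue, WT; red, *Dek* cKO) and a bar at the group median. In every panel the points of the WT and *Dek* cKO groups overlap, and in all panels but that of *Otx2* nearly the same libraries lie high or low; *Ttr* spans 37.5 to 4289 TPM and *Kl* 5.93 to 43.6 TPM.

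The markers were first compared between *Dek* cKO and WT over both sexes. *Ttr* had a mean of 1678 ± 1751 TPM (SD, n = 6) in *Dek* cKO and 1189 ± 1154 TPM (SD, n = 6) in WT. *Enpp2* had 356 ± 293 TPM against 259 ± 161 TPM, *Folr1* had 19.0 ± 18.1 TPM against 14.0 ± 12.2 TPM, and *Otx2* had 6.29 ± 5.78 TPM against 5.15 ± 3.10 TPM (SD, n = 6 each). For 9 of 10 markers the SD within each genotype was larger than the difference between the means. The exception was *Prlr*, with 9.99 ± 7.39 TPM against 6.17 ± 3.74 TPM. With limma on log2(TPM + 0.1), 0 of 10 markers passed (adjusted p below 0.05 and a change of more than 1.2-fold), and 0 of 10 had an unadjusted p under 0.05, while 0.148% of all tested genes passed. An unadjusted p under 0.05 was held by 6.64% of all tested genes. Of the markers, 9 of 10 had a positive fitted difference, with a median of 0.21 on the log2 scale, beside 55.8% of all tested genes and their median of 0.02. The markers rose and fell together from library to library, as described below. Their signs are therefore not separate results, here or in the later counts of signs. The lowest adjusted p among the markers was 0.949, that of *Prlr*.

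The fitted difference of *Ttr* was 0.13 on the log2 scale, with a standard error of 1.38 and a 95% interval from -2.84 to 3.09 (limma, adjusted p = 0.999). This interval leaves room for a *Ttr* level in *Dek* cKO several times above or below that in WT. *Otx2* had the only negative estimate, -0.55, with an interval from -2.73 to 1.64. *Prlr* had the highest, 0.46, with an interval from -0.87 to 1.78. *Kl* had the narrowest interval, from -0.88 to 1.21 around an estimate of 0.17. The estimates of the other markers lay between 0.01 for *Clic6* and 0.42 for *Slc4a5*. The estimate of *Prlr* stayed positive under every alternative, from 0.09 without the C57-named WT libraries to 0.83 without female *Dek* cKO replicate 1. The other 9 changed sign on leaving out single libraries, and that of *Ttr* ran from -0.54 without female WT replicate 3 to 0.91 without female *Dek* cKO replicate 1. Without the 3 C57-named WT libraries *Ttr* was at -1.34, and without both libraries of conflicting sex it was at -0.82.

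Within the sexes the direction differed but no marker passed. In females, 0 of 10 markers passed in limma and 0 had an unadjusted p under 0.05, beside 0.0165% and 5.79% of all tested genes. The females' median was 0.65, with 9 of 10 positive beside 53.9% of all tested genes, and *Ttr* was at 1.42 (95% interval -2.79 to 5.63). The female WT libraries are C57-named and the female *Dek* cKO libraries CMV-named, so genotype and library name cannot be told apart in females. In males, 0 of 10 passed and 0 had an unadjusted p under 0.05, beside 0.0165% and 5.45% of all tested genes. The males' median was -0.28, with 1 of 10 positive beside 54.9% of all tested genes, and *Ttr* was at -1.17 (95% interval -5.38 to 3.04). The difference between the sexes was tested as an interaction in limma, which carries the same overlap of genotype and library name. There 0 of 10 markers passed and 0 had an unadjusted p under 0.05, beside 0% and 4.23% of all tested genes. Both sexes include a library whose Y-linked RNA goes against its label, and these 2 libraries are female *Dek* cKO replicate 3 and male *Dek* cKO replicate 1, the latter with the most *Ttr* of all.

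Male and female WT libraries were compared in the same way. *Ttr* was higher in male WT by 2.94 on the log2 scale (95% interval -1.27 to 7.15), which did not pass in limma (adjusted p = 1). Of the markers, 9 of 10 had a positive difference beside 46.0% of all tested genes, and the median was 1.2 on the log2 scale. In limma 0 passed and 0 had an unadjusted p under 0.05, beside 0% and 3.63% of all tested genes. The comparison sets CMV-named male libraries against C57-named female libraries, and sex and library name cannot be told apart in it.

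**Figure D2:**
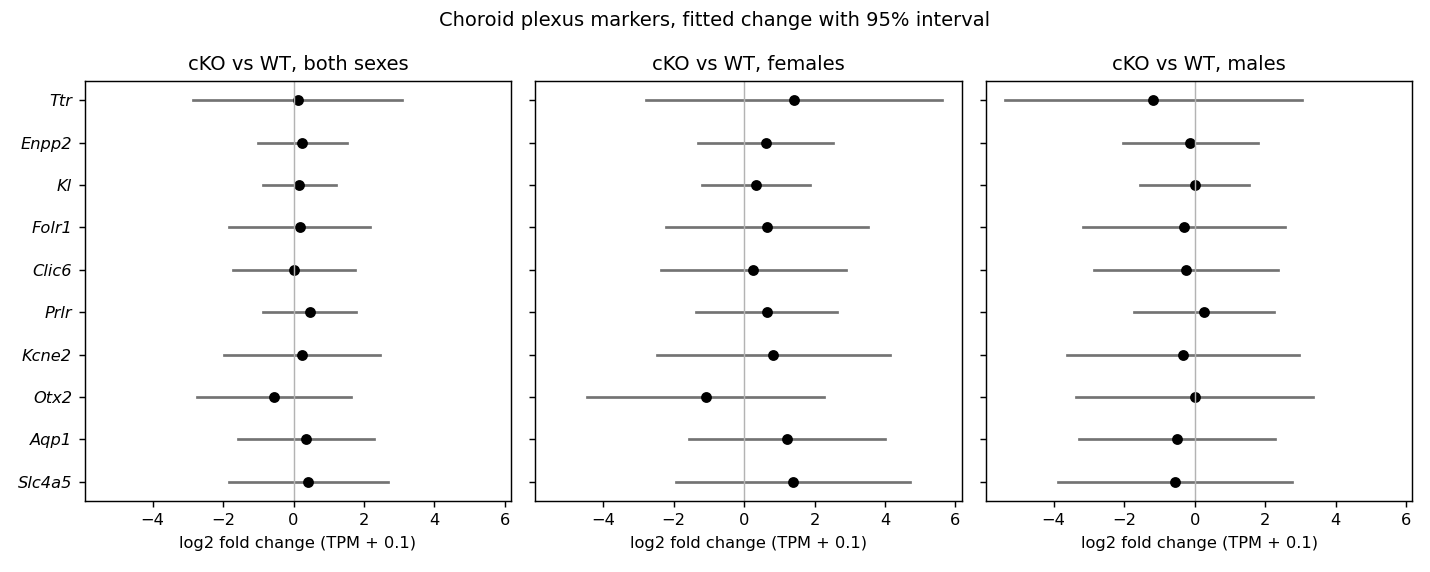
Fitted log2 fold change of *Dek* cKO over WT for the 10 choroid plexus markers (points), on the log2(TPM + 0.1) scale, with 95% intervals (lines), in both sexes, females and males. Every interval includes 0, and that of *Ttr* in both sexes runs from -2.84 to 3.09.

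The markers rose and fell together from library to library. Correlations were taken over the log2 values of the 12 libraries for all 45 pairs of markers, with permutation tests and Benjamini-Hochberg adjustment over the 45. *Ttr* fell into separate clusters, with 4 libraries between 37.5 and 81.6 TPM and 8 between 559 and 4289 TPM, so its pairs are given within the 8 libraries alone, a choice made after seeing the data. There Pearson's r of *Ttr* with the other 9 markers was 0.997 for *Folr1* and 0.995 for *Aqp1* at the upper end and 0.897 for *Otx2* and 0.857 for *Prlr* at the lower end. The Spearman rho of *Ttr* with *Folr1* and with *Aqp1* was 1, and that with *Prlr* was 0.810. By exact permutation tests over the 8 libraries the adjusted p of *Ttr* with *Prlr* was 0.00717 for r and 0.0218 for rho, and those of the other 8 pairs were lower. Without the 2 libraries of that set farthest from its median *Ttr*, r stayed at 0.995 for *Folr1* but fell to 0.702 for *Otx2* and 0.605 for *Prlr*.

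Among the 28 pairs that hold neither *Ttr* nor *Otx2*, r over the 12 libraries lay between 0.932 (*Clic6* and *Prlr*) and 0.996 (*Aqp1* and *Slc4a5*), with rho between 0.881 and 0.986. Their adjusted permutation p-values were at most 4.86e-05 for r and 0.000416 for rho, and 1e-05 was the smallest p that the permutations could give. Leaving out the 2 libraries farthest from the median of the first gene left r between 0.913 and 0.995. Within genotypes the same 28 pairs had r between 0.918 and 0.994 over the 6 WT libraries and between 0.920 and 0.998 over the 6 *Dek* cKO libraries. Over the 9 CMV-named libraries r lay between 0.926 and 0.996. The agreement between these markers was therefore present inside each genotype and without the C57-named libraries.

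A choroid plexus index was made for each library as the median of its markers' log2 values, each taken relative to the median library. It was lowest in female *Dek* cKO replicate 1, at -2.78, and highest in male *Dek* cKO replicate 1, at 1.79. WT libraries ran from -1.87 to 1.14 with a mean of -0.43 ± 1.28, and *Dek* cKO libraries ran from -2.78 to 1.79 with a mean of -0.28 ± 1.87 (SD, n = 6 each). Against the index of the other 9 markers, *Kl* had the highest r, 0.984, and *Otx2* the lowest, 0.803.

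On the linear scale the markers differed in what remained where *Ttr* was near 0. A straight line on *Ttr* over the 12 libraries was used as a description. *Folr1* rose by 10.4 TPM for each 1000 TPM of *Ttr*, from an intercept of 1.61 ± 0.59 TPM (SE). *Aqp1* had an intercept of 0.071 ± 0.24 TPM and *Kcne2* one of 0.18 ± 0.60 TPM, which are within their errors of 0. In the 4 libraries under 500 TPM of *Ttr*, however, *Aqp1* was at 0.435 to 0.828 TPM and *Kcne2* at 0.374 to 1.11 TPM. *Enpp2* rose by 159 TPM for each 1000 TPM of *Ttr* from an intercept of 80.1 ± 16.2 TPM. *Kl* rose by 7.97 TPM from an intercept of 6.46 ± 0.72 TPM, and *Prlr* had an intercept of 2.75 ± 1.12 TPM. *Enpp2* and *Kl*, which had the smallest ratios between libraries, thus had the intercepts that exceeded their errors most. The 10 oligodendrocyte genes of a fixed list summed to between 2518 and 5197 TPM in the libraries, with none at 0, and their part in the *Enpp2* intercept was not tested.

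**Figure D3:**
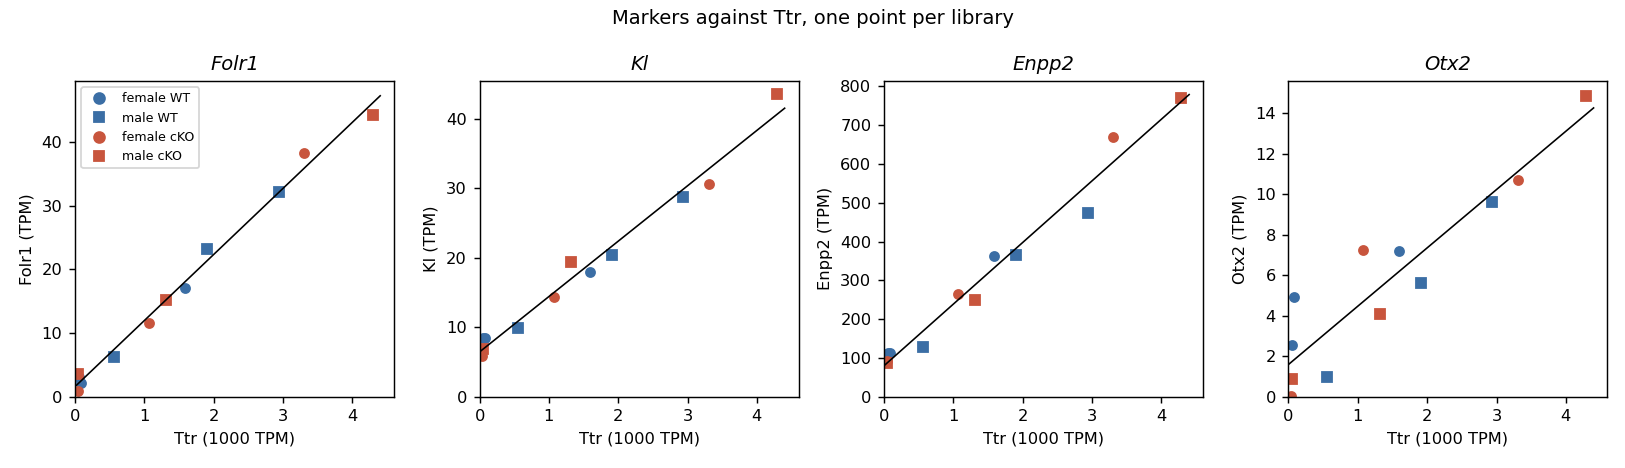
*Folr1*, *Kl*, *Enpp2* and *Otx2* (TPM) against *Ttr* (in 1000 TPM), 1 point per library (circles, female; squares, male; blue, WT; red, *Dek* cKO), with the straight line fitted to all 12 libraries. The lines of *Folr1*, *Kl* and *Enpp2* start from 1.61, 6.46 and 80.1 TPM, and *Otx2* scatters most around its line.

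The ratio of the markers to *Ttr* was narrow for some markers and wide for others. For each 1000 TPM of *Ttr*, the 8 libraries with over 500 TPM of it held between 10.3 and 12.2 TPM of *Folr1* and between 2.93 and 3.58 TPM of *Aqp1*, whose highest ratios were 1.18 and 1.22 times the lowest. For *Slc4a5* and *Kl* the highest was 1.91 and 1.90 times the lowest. *Prlr* was looser, with 3.53 to 10.1 TPM, its highest ratio being that of male *Dek* cKO replicate 3. *Otx2* ran from 1.75 TPM in male WT replicate 2 to 6.73 TPM in female *Dek* cKO replicate 3. In the other 4 libraries, with *Ttr* at 81.6 TPM or less, *Folr1* stood at 24.7 to 73.5 TPM for each 1000 TPM of *Ttr*. There *Aqp1* stood at 8.17 to 19.5 TPM, and *Kcne2* at 7.59 to 20.8 TPM against 3.92 to 6.60 TPM in the 8 libraries.

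*Otx2* departed most from the other markers over the 12 libraries. Within the 8 libraries with over 500 TPM of *Ttr*, *Prlr* departed more. There r to the index of the other 9 markers was 0.863 for *Prlr* and 0.910 for *Otx2*. The values of *Otx2* were 7.19, 4.92 and 2.58 TPM in female WT, 0.0281, 10.7 and 7.22 TPM in female *Dek* cKO, 5.63, 0.981 and 9.59 TPM in male WT, and 14.8, 0.863 and 4.06 TPM in male *Dek* cKO. Female WT replicate 2 thus held 4.92 TPM of *Otx2* beside 81.6 TPM of *Ttr*, while male WT replicate 2 held 0.981 TPM beside 559 TPM. The 8 pairs of *Otx2* with markers other than *Ttr* had r between 0.732 and 0.908 over the 12 libraries (adjusted permutation p at most 0.00335) and rho between 0.825 and 0.958 (adjusted permutation p at most 0.00165). Their r was 0.546 to 0.803 within the 6 WT libraries and 0.872 to 0.975 within the 6 *Dek* cKO libraries. Over the 9 CMV-named libraries, which leave out the female WT libraries, it was 0.889 to 0.973. Genotype and library name overlap in these sets, and the differences between the ranges were not tested.

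The genes most like *Otx2* were then listed, a step added after its values were seen. *Calml4*, a calmodulin-like gene, came first, with r = 0.972 and rho = 1 over the 12 libraries, so that both genes put the libraries in the same order. Next came *Cfap43* (r = 0.966) and *Wdr63* (r = 0.963), which belong to motile cilia, *Mia* (r = 0.952), *Sqor* (r = 0.947) and *Dnaaf3* (r = 0.930), an assembly factor of ciliary dynein. *Fam47e*, *Drc7*, *Prr32* and *Krt18* made up the rest of the 10 most like, with r from 0.923 to 0.929. Their r to the choroid plexus index ran from 0.698 for *Dnaaf3*, 0.749 for *Wdr63* and 0.757 for *Cfap43* to 0.905 for *Calml4*, 0.944 for *Drc7* and 0.945 for *Prr32*. *Calml4* and *Krt18* are on the second choroid plexus list, described below, and *Mia* is on the ependymal list. The list of 15 ependymal genes, which marks the ciliated lining of the ventricles, summed to between 31.7 and 89.5 TPM in WT and between 23.0 and 88.6 TPM in *Dek* cKO libraries. Its lowest sum was in female *Dek* cKO replicate 1, which also had the lowest *Otx2*, and 1 of the 15 genes, *Rarres2*, was at 0 in 4 libraries. Female WT replicates 2 and 3 had ependymal sums of 85.2 and 71.1 TPM, and male WT replicate 2 had 31.7 TPM. The part of ependyma in the *Otx2* values was not tested.

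**Figure D4:**
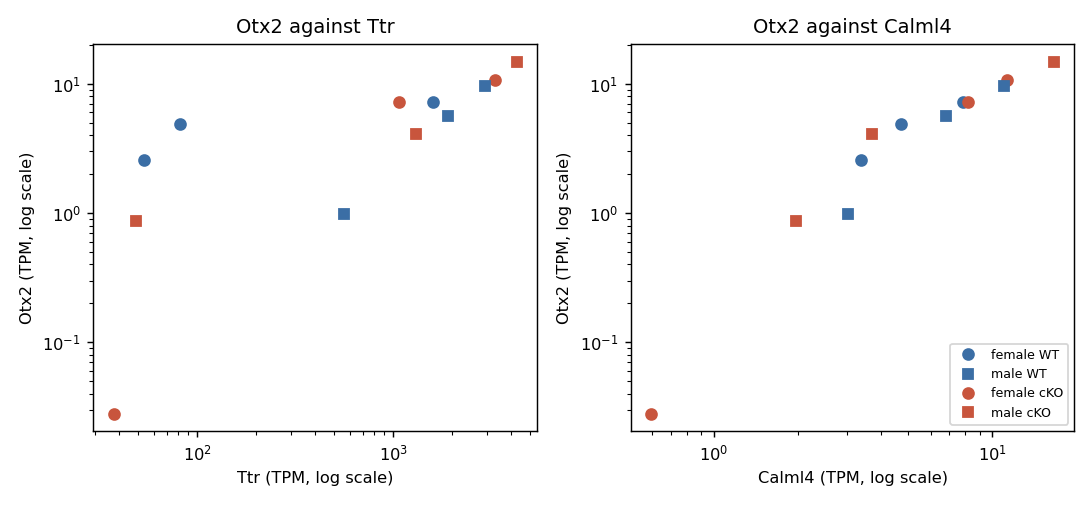
*Otx2* (TPM, log axis) against *Ttr* and against *Calml4* (TPM, log axes), 1 point per library (circles, female; squares, male; blue, WT; red, *Dek* cKO). Against *Ttr* the female WT libraries with 81.6 and 53.3 TPM lie above male WT replicate 2 with 559 TPM, whereas against *Calml4* all 12 libraries keep one order.

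Because OTX2 is the transcription factor among the markers, promoters were searched for the homeodomain site TAATCC on either strand. RefSeq windows from 250 bases before to 50 bases after a gene's start (GRCm38.p6) were matched for *Kl*, *Kcne2*, *Otx2*, *Aqp1*, *Slc4a5* and *Prlr*, and 1 of these 6 genes, *Otx2*, held the site, in 1 of its 4 windows. That window belongs to a start that lies inside the gene as GENCODE bounds it. It was held by 3 of 28 genes of the second choroid plexus list (10.7%) and by 8.14% of all genes with a window. *Mfrp*, which was among the genes most like the index, held it too. The stretches upstream of *Otx2* (chr14:48665280-48665355, minus strand) and *Mfrp* (chr9:44101601-44101676, plus strand) are shown because they carry the site, which stands in capitals in its reverse orientation and begins 211 and 134 bases before the start of that window's transcript. A match of these letters is a description and not a binding site.
Otx2: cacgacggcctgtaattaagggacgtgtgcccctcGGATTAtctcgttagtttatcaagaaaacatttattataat
Mfrp: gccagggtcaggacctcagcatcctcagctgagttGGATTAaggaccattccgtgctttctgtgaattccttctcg

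*Kcne2* and *Clic6* lie near each other on chromosome 16 (GRCm38, GENCODE M21), *Kcne2* at 92292389 to 92298129 and *Clic6* at 92485736 to 92541243, both on the plus strand and 187606 bases apart. The genes between them did not share their range. *Smim11* ran from 29.6 to 41.2 TPM and *Rcan1* from 28.4 to 49.7 TPM over the 12 libraries, ratios of 1.39 and 1.75, while *Kcne2* and *Clic6* ran over ratios of 59.5 and 32.2. *Kcne1* reached 0.191 TPM at most. *Aqp1* and *Slc4a5*, the pair with the highest r, are both on chromosome 6, but 27871272 bases apart.

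All 18197 tested genes were ranked by their r to the choroid plexus index over the 12 libraries, to name the genes whose pattern was most like that of the markers. Beside the markers, 32 genes had r of at least 0.9, of which 15 had at least 0.95, and 0 had r of -0.9 or below. As the genes were picked for a high r, no p is given. The highest was *1500015O10Rik*, the gene RefSeq names *Ecrg4*, with r = 0.995, which ran from 3.42 to 79.5 TPM. *F5*, coagulation factor V, followed with 0.994 and *Cldn2*, the pore-forming claudin of leaky tight junctions, with 0.985. *Sostdc1*, a secreted antagonist of BMP and Wnt signalling, had 0.980, and *Col8a1*, a short-chain collagen, had 0.975. *Mfrp*, a membrane protein related to frizzled receptors, also had 0.975.

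The next genes included further channels and transporters of epithelia. *Trpv4*, an osmosensitive cation channel, had r = 0.967, *Trpm3* had 0.959, *Kcnj13*, an inward rectifier potassium channel, had 0.952, and *Slc2a12*, a glucose transporter, had 0.948. *Kcnj13* ran from 0.551 to 35.4 TPM. *Rdh5*, a retinol dehydrogenase, had 0.965, *Pon3*, a paraoxonase, 0.960, *Wfdc2* 0.974 and *Wdr86* 0.971. *Rbm47*, *Tuba1c*, *Prr32*, *Drc7*, *Tmprss11a* and *Steap1* made up the rest of the 20 most like, with r from 0.940 to 0.955. Of the 20, 9 were on the second list of choroid plexus genes as matched by symbol. The first, *1500015O10Rik*, had been written on that list as *Ecrg4* and is not counted there. When female *Dek* cKO replicate 1 and male *Dek* cKO replicate 2, whose index was farthest from the median, were left out, 15 of the 20 stayed among the 20 most like.

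The second choroid plexus list held 31 further genes of the epithelium. Of these, 14 had r of at least 0.9, and the median was 0.895, where all tested genes, the markers included, had a median of 0.019 and 41 of 18197 reached 0.9. In *Dek* cKO against WT over both sexes 0 of 31 passed in limma and 0 had an unadjusted p under 0.05, beside 0.148% and 6.64% of all tested genes. Their median difference was 0.14, with 22 of 31 positive, beside 55.8% of all tested genes. Not all of its genes followed the markers. *Tmem72* had r = 0.90 but ran only from 13.6 to 19.8 TPM, a ratio of 1.46. *Car12*, a carbonic anhydrase, had r = 0.643, and *Igfbp2*, an insulin-like growth factor binding protein, 0.748. *Slc13a4*, a sulphate transporter, had r = 0.302 to the choroid plexus index and 0.854 to an index of 16 genes of meningeal and perivascular fibroblasts (n = 12 libraries each). *Sulf1* was lowest, at 0.288. The 4 most abundant genes of the list, *Igfbp2*, *Slc4a2*, *Car12* and *Vat1l*, had r from 0.643 to 0.81.

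Genes of the pathways to which the markers belong were mostly less like the index. Of 19 genes for ion and water transport in cerebrospinal fluid secretion, 0 had r of at least 0.9 and the median was 0.076. Taken as 1 index per list over the 12 libraries, r to the choroid plexus index was 0.639 for this list, 0.671 for the folate list, 0.539 for the retinol and thyroid list, and 0.558 for the ependymal list. *Slc12a4*, a potassium chloride cotransporter, was highest with 0.761 and *Slc12a2*, the sodium potassium chloride cotransporter NKCC1, followed with 0.750. *Atp1b1*, a subunit of the sodium pump that neurons express strongly, had a mean of 1302 TPM and r = 0.053. Of 12 genes for the carriage of retinol and thyroid hormone, which transthyretin serves, 2 reached 0.9. These were *Rdh5* and *Slco1c1*, a thyroxine transporter, with 0.914. The retinol-binding protein gene *Rbp4* had r = -0.43. Among the most abundant genes of the ion and water list, *Atp1b1*, *Atp1b2* and *Car2* had r from -0.17 to 0.669. Among those of the retinol and thyroid list, *Crym*, *Slco1a4* and *Slco1c1* had r from -0.14 to 0.914.

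For the receptors and enzymes among the markers, the partners were looked at in the same way. Of 9 genes of folate uptake and use, beside *Folr1*, 0 reached 0.9, and the median was 0.232. Of 8 genes for FGF receptors and klotho-like coreceptors, beside *Kl*, 0 reached 0.9 and *Fgfr2* was highest with 0.471. Of 10 genes of lysophosphatidic acid signalling, downstream of *Enpp2*, 0 reached 0.9 and *Plpp1*, a lipid phosphatase, was highest with 0.575. Of 9 genes of the prolactin receptor pathway 0 reached 0.9, and *Stat5a*, a transcription factor that the receptor activates, was highest with 0.783. Among the most abundant genes, r ran from 0.232 to 0.534 in the folate list (*Mthfd1*, *Slc19a1* and *Shmt1*) and from -0.53 to 0.471 in the klotho list (*Fgfr1*, *Fgfr3*, *Fgfr2* and *Lctl*). It ran from -0.23 to 0.575 in the lysophosphatidic acid list (*Plpp3*, *Plpp1*, *Lpar1* and *Enpp6*) and from -0.47 to -0.16 in the prolactin list (*Socs2*, *Jak2*, *Stat5b* and *Ghr*). By limma, 0 genes of these 6 lists passed in any of the 5 comparisons. At an unadjusted p under 0.05 between *Dek* cKO and WT over both sexes stood 6.64% of all tested genes, 2 of 12 genes of the retinol and thyroid list, 2 of 9 of the folate list, 1 each of the 8, 10 and 9 of the klotho, lysophosphatidic acid and prolactin lists, and 0 of 19 of the ion and water list. *Stra6*, the receptor of retinol-binding protein, was among them, with a difference of 0.40 on the log2 scale (limma, adjusted p = 0.256). The other gene of the retinol and thyroid list, *Crym*, went the other way, with -0.34 (limma, adjusted p = 0.528).

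**Figure D5:**
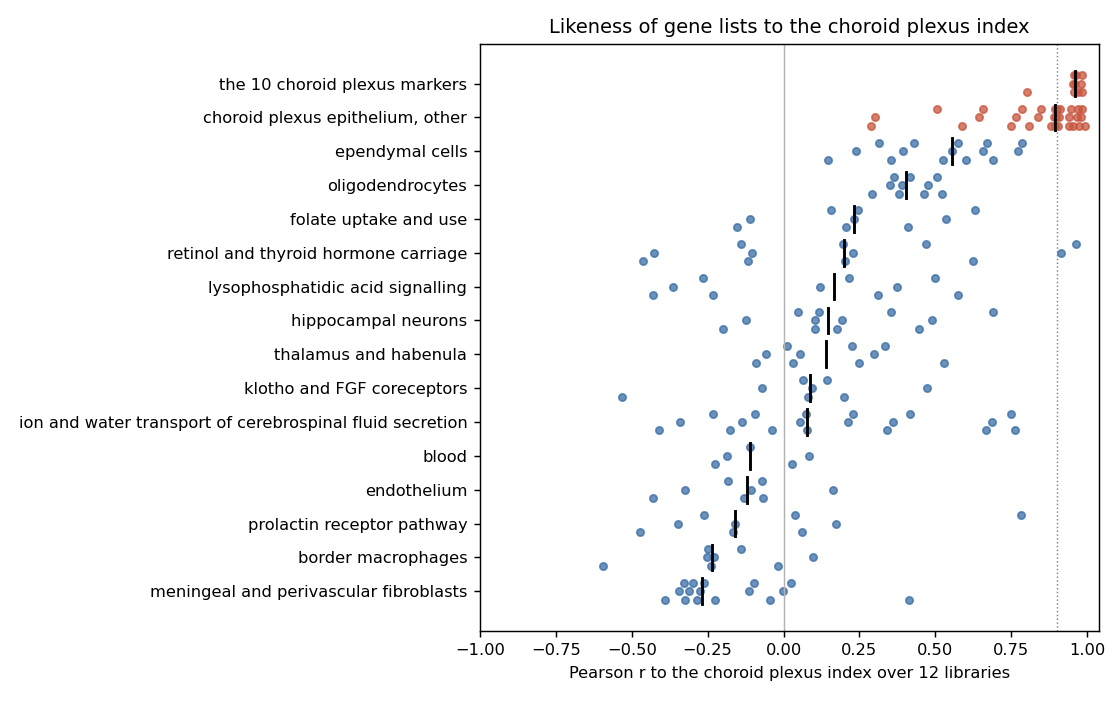
Pearson's r of each gene of 16 lists to the choroid plexus index over the 12 libraries (points; for the 10 markers, the index of the other 9), with the list median as a bar and a dotted line at 0.9. Both choroid plexus lists (red) have medians of 0.961 and 0.895, and the ependymal list is next with 0.555.

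The lists for other cell types and for tissue next to the hippocampus had lower medians than both choroid plexus lists. The ependymal list had a median r of 0.555, with 0 of 15 genes at 0.9 or above, and the 10 oligodendrocyte genes had a median of 0.403. Meningeal and perivascular fibroblast genes had a median of -0.27, border macrophage genes -0.24, blood genes -0.11 and endothelial genes -0.12. The fibroblast list summed to between 91.7 and 370 TPM, with its highest sum in male *Dek* cKO replicate 2, a library with 48.8 TPM of *Ttr*. The 10 thalamus and habenula genes had a median of 0.140, and the 12 hippocampal neuron genes, which summed to between 506 and 783 TPM, had one of 0.147. Among the most abundant genes of each list, r ran from 0.355 to 0.656 in the ependymal list (*Foxj1*, *Tmem212*, *Rsph1* and *Enkur*) and from 0.349 to 0.416 in the oligodendrocyte list (*Mbp*, *Mobp* and *Cnp*). It ran from -0.27 to 0.413 in the fibroblast list (*Dcn*, *Igf2*, *Pdgfra* and *Islr*) and from -0.25 to -0.02 in the border macrophage list (*Pf4*, *Cbr2*, *Mrc1* and *Cd163*). It ran from -0.22 to 0.083 in the blood list (*Hbb-bs*, *Hba-a2*, *Hba-a1* and *Hbb-bt*) and from -0.32 to -0.07 in the endothelial list (*Cldn5*, *Ly6c1*, *Esam* and *Flt1*). The range was from -0.09 to 0.333 in the thalamus and habenula list (*Prkcd*, *Nwd2*, *Lhx9* and *Rgs16*) and from -0.20 to 0.445 in the hippocampal neuron list (*Neurod6*, *Neurod2*, *C1ql2* and *Wfs1*).

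Of the 27 genes that passed between *Dek* cKO and WT over both sexes, the r to the choroid plexus index lay between -0.22 and 0.23. With the index of each library added to the limma fit as a covariate, 27 genes passed, of which 24 were among the 27 that passed without it. These genes were picked for a difference between genotypes. Over the 12 libraries the index differed little between genotypes, with a mean of -0.43 ± 1.28 in WT and -0.28 ± 1.87 in *Dek* cKO (SD). A low r and a large overlap therefore follow from how the genes were picked. The WT mean joins unlike groups, with -1.03 ± 1.31 in the C57-named female WT libraries and 0.17 ± 1.14 in the CMV-named male WT libraries (SD, n = 3 each). The part of attached choroid plexus in the values of the 27 genes was not tested.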

How the data were processed

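Hippocampal RNA of 12 mice was measured, with 3 libraries in each of 4 groups set by the sample labels. The authors deposited 1 table of TPM. The submitters' processing notes name kallisto and mm10, the paper's methods name STAR and Salmon, and no source says which made the table. TPM keeps no read counts, so counting error and depth are unknown and the paper's DESeq2 test was not repeated. Each of the 12 columns was assigned through the library name in its sample's labels, and 0 were left over. No pair of libraries shared more than 0.0055% of identical values above 0. Of the 26409 identifiers, 25245 were matched to GENCODE M21.

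Values were analysed as log2(TPM + 0.1), a scale that understates the change of low genes, for the 18197 genes that averaged 0.1 TPM or more. Tests used limma 3.58.1 in R 4.3.3, with a trended prior variance, two-sided, adjusted by Benjamini-Hochberg over all tested genes. Both sexes together were fitted as 2 groups of 6, and the other comparisons came from 1 fit of 4 groups. P-values measure the spread between animals. Correlations used 100000 permutations, or exact enumeration over 8 libraries. The fit and the permutation test were tested on simulated data. Other steps used Python 3.11.15 with scipy 1.17.1 and pandas 2.3.3.

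The markers and the gene lists were chosen with earlier results of these data known. Genes named are the markers, the 20 other genes most like their index, the 4 most abundant genes of each other list, *Dek* and Y-linked genes. Results for some of these genes are not reported here. Genes between *Kcne2* and *Clic6*, the genes most like *Otx2*, and single list genes given for their r were chosen after their values were seen. Alternatives changed the added TPM, the filter, the scaling, the prior, the libraries, a sex covariate, a replicate block and the make-up of the index.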

Additional observations from a re-analysis of the deposited data

How the results depend on the processing

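Over 24 alternatives and 5 comparisons, 0 of 1090 fitted values of a marker passed an adjusted p under 0.05 by limma, and the lowest adjusted p was 0.701. The signs were not stable: 102 of the 1090 values changed sign, 78 of them on leaving out 1 library. Over both sexes *Clic6* went to -0.0024 with median ratio rescaling and -0.023 with quantile normalization. Without both libraries of conflicting sex, values over both sexes were -0.82 for *Ttr*, -0.16 for *Kl*, -0.41 for *Folr1*, -0.61 for *Clic6*, -0.46 for *Kcne2*, -0.23 for *Aqp1*, -0.17 for *Enpp2* and -0.35 for *Slc4a5*. Without the C57-named WT libraries they were -1.34, -0.19, -0.72, -0.42, -0.52, -0.53, -0.13 and -0.49 in that order. In females *Clic6* was -0.0032 and in males *Prlr* -0.25 without the libraries of conflicting sex. In males, 0.5 or 1 TPM added gave *Kl* 0.0044 or 0.011 and *Otx2* 0.019 or 0.034.

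Leaving out 1 library at a time gave, over both sexes, ranges of -0.54 to 0.91 for *Ttr*, -0.12 to 0.45 for *Kl*, -0.25 to 0.83 for *Folr1*, -0.42 to 0.56 for *Clic6*, -0.23 to 0.88 for *Kcne2*, -1.02 to 0.35 for *Otx2*, -0.095 to 0.85 for *Aqp1*, -0.073 to 0.55 for *Enpp2* and -0.12 to 1.03 for *Slc4a5*. In females the ranges were -0.24 to 0.94 for *Kl*, -0.50 to 2.11 for *Folr1*, -0.75 to 1.55 for *Clic6*, -0.34 to 2.31 for *Kcne2*, -2.25 to 0.95 for *Otx2*, -0.082 to 1.34 for *Enpp2* and -0.15 to 1.48 for *Prlr*. In males they were -2.53 to 0.70 for *Ttr*, -0.64 to 0.69 for *Kl*, -1.17 to 0.63 for *Folr1*, -1.22 to 0.67 for *Clic6*, -1.44 to 0.96 for *Kcne2*, -0.97 to 1.01 for *Otx2*, -1.61 to 0.74 for *Aqp1*, -0.92 to 0.65 for *Enpp2*, -1.93 to 0.94 for *Slc4a5* and -0.25 to 1.14 for *Prlr*. For male against female WT the range of *Otx2* was -0.89 to 0.69. For the interaction the ranges were -0.98 to 0.35 for *Kl*, -2.42 to 0.19 for *Folr1*, -1.79 to 0.51 for *Clic6*, -2.65 to 0.14 for *Kcne2*, -0.95 to 2.25 for *Otx2*, -1.53 to 0.031 for *Enpp2* and -1.21 to 0.50 for *Prlr*.

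Same-numbered WT and *Dek* cKO libraries deviated from their group means with correlations of -0.038 to 0.045, so no pairing by number was seen. As these values are taken over all tested genes at once, they cannot exclude a pairing. Taking equal replicate numbers as pairs (replicate block) left 0 markers past the threshold in each comparison. The count of all tested genes passing over both sexes, 27, became 3 with the block, 17 without a filter, 16 without the libraries of conflicting sex, 8 without the C57-named WT libraries and 13 to 27 with 1 library left out. In females 3 became 7 without a variance trend, 1 with the block, 11 without the libraries of conflicting sex and 1 in a fit of the sex alone. In males 3 became 6 without a filter, without a trend or in a fit of the sex alone, 1 with the block and 7 without the libraries of conflicting sex. The 0 of male against female WT became 3, 3 and 4, and the 0 of the interaction 2, 2 and 2, without a filter, without a trend and without the libraries of conflicting sex. With *Ttr* alone as the index, female WT replicates 2 and 3, female *Dek* cKO replicate 1 and male *Dek* cKO replicate 2 moved to -3.86, -4.47, -4.98 and -4.60. The causes were not tested. Read depth is not known, so how much of the spread of low genes such as *Otx2* is counting error cannot be given.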
